A study of Mus musculus with 8 samples.

Results

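Transcript levels of 8 genes that mark second heart field progenitors were examined in hearts of mouse embryos at E8.5 and E9.5. The genes were chosen by name, and all 8 of 8 had a row among the 24385 features of the expression table. They are 5 transcription factors (*Isl1*, *Tbx1*, *Hoxb1*, *Osr1* and *Foxf1*), 2 secreted growth factors (*Fgf8* and *Fgf10*) and 1 receptor (*Pdgfra*). RNA of C57BL/6 embryonic hearts was sequenced in 8 libraries, with 2 biological replicates in each of 4 groups. The groups were E8.5 WT, E8.5 cKO, E9.5 WT and E9.5 cKO. The labels give the cKO as Mesp1Cre/+; Dgcr8-/- and the controls as wild type, whereas the study describes its controls as embryos with floxed *Dgcr8* alleles and no Cre. Per the study, embryos of both kinds also carried a Rosa26 mTmG reporter, so the groups share the floxed alleles and the reporter. The cKO differs by 1 Mesp1-Cre allele, which removes *Dgcr8*, a subunit of the microRNA processing complex, from cells descended from *Mesp1*-expressing mesoderm. Cells of other origin in the same dissection keep the gene.

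The heart tube first forms from the first heart field and then lengthens by adding cells of the second heart field, which lies in the pharyngeal mesoderm behind and beside it. ISL1 marks these progenitors, TBX1 and FGF signals keep the anterior ones dividing, and HOXB1, OSR1 and FOXF1 mark the posterior ones under the influence of retinoic acid and hedgehog signals. The progenitors lose this program as they enter the tube and become muscle, and several of the same genes are also active in neighbouring pharyngeal endoderm, splanchnic mesoderm and neural crest.

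Values were FPKM (fragments per kilobase of transcript scaled to the fragments of the library), a scale that allows levels of different genes to be compared. Library depth, recovered from the steps between low values, was about 13900000 to 20100000 fragments. The targeted gene *Dgcr8* had 7.10 and 8.60 FPKM (WT) against 1.64 and 4.67 FPKM (cKO) at E8.5, then 3.49 and 3.23 FPKM (WT) against 1.15 and 1.77 FPKM (cKO) at E9.5, so that both cKO libraries lay below both WT libraries at each stage without passing the test. Differences were tested with limma on log2(FPKM + 1) over the 10018 genes whose mean reached 1 FPKM, and a gene was called at a Benjamini-Hochberg adjusted p under 0.05 and a change of at least 1.5-fold. Summed FPKM differed between libraries, and over all tested genes the median log2 change was -0.28 for cKO against WT at E8.5, -0.07 at E9.5, -0.84 for E9.5 against E8.5 in WT and -0.64 for that comparison in cKO hearts. Loci shorter than 300 bp held 15.7% and 16.2% of the summed FPKM in E8.5 WT against 38.6% and 50.5% in E8.5 cKO libraries, and 54.5% in E9.5 cKO replicate 1 against 18.3% to 22.4% in the other E9.5 libraries. With FPKM rescaled to longer loci the E8.5 median was -0.37. All 15 cardiomyocyte markers were above 1 FPKM in the E8.5 libraries. In bulk RNA, fewer cells of a type and less RNA per cell cannot be told apart. Several libraries stood apart by tissue markers. E8.5 WT replicate 1 was the highest of its stage for 13 of 16 markers of pharyngeal and gut endoderm (81.2%, against 40.9% of all tested genes), and E9.5 WT replicate 1 for 7 of 11 markers of proepicardium and splanchnic mesoderm (63.6%, against 28.8%). E8.5 cKO replicate 1 was the highest of its stage for 10 of 10 yolk sac and hepatic endoderm genes, and E8.5 cKO replicate 2 for 7 of 12 decidual genes.

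Averaged over the 8 libraries, the level was highest for *Fgf8* (13.2 FPKM), followed by *Isl1* (6.90), *Pdgfra* (4.65), *Osr1* (1.44), *Fgf10* (0.812), *Foxf1* (0.775), *Hoxb1* (0.450) and *Tbx1* (0.0220). The ranges over libraries of any 2 neighbours in this order overlapped. Only *Fgf8*, *Isl1*, *Pdgfra* and *Osr1* had a mean of at least 1 FPKM and entered the test over 10018 genes. The other 4 members were fitted without a filter, over 19580 features. None of the 8 was called between cKO and WT hearts at either stage. This compares with 0.00998% of tested genes called at E8.5 and 0.18% at E9.5, so a call was rare for any gene.

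**Figure D1:**
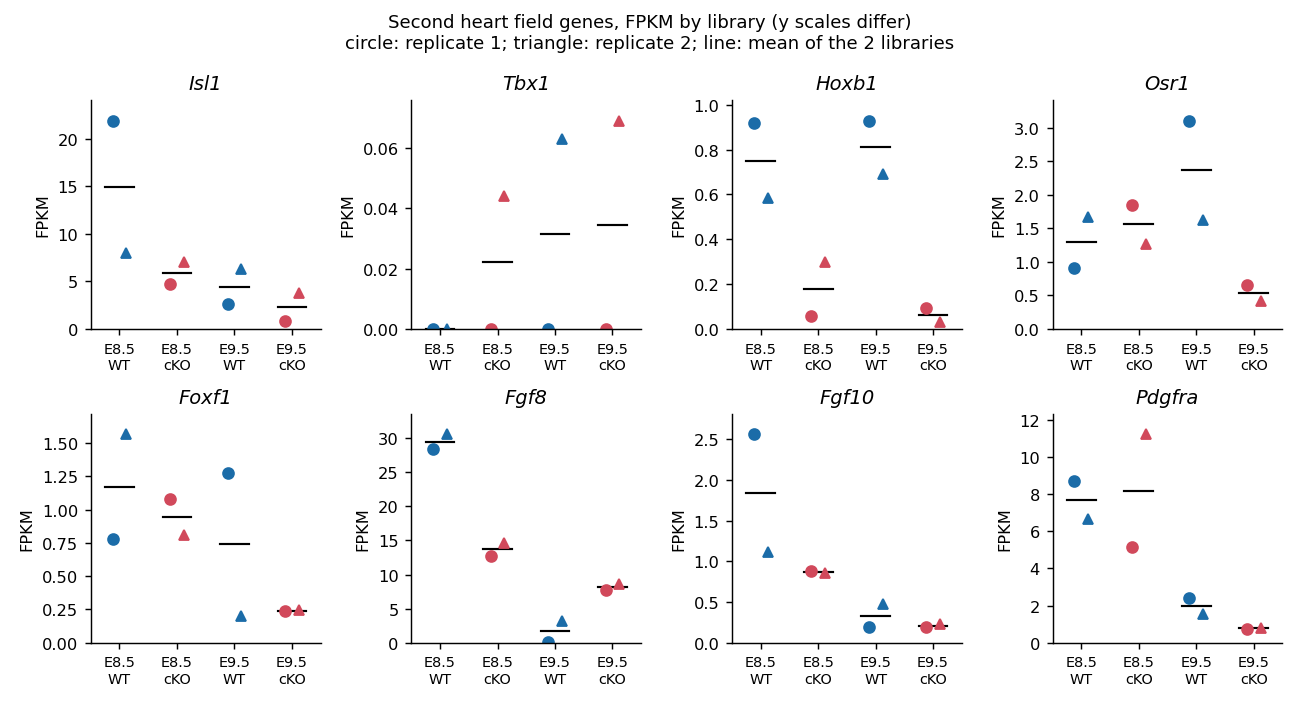
FPKM of the 8 genes (y axis, linear from 0, a separate scale per gene) in the 4 groups (x axis), with each library as a point (circle, replicate 1; triangle, replicate 2; blue, WT; red, cKO) and the mean of 2 libraries as a line. *Fgf8* had 28.4 and 30.5 FPKM in E8.5 WT hearts and 0.150 and 3.16 FPKM in E9.5 WT hearts, *Hoxb1* was lower in every cKO library than in any WT library, and *Tbx1* did not exceed 0.0691 FPKM.

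*Isl1* encodes the LIM-homeodomain factor that defines the second heart field (chromosome 13, 116298270 to 116309688 on GRCm38). It had 21.9 and 8.02 FPKM (WT) against 4.68 and 7.03 FPKM (cKO) at E8.5, then 2.58 and 6.31 FPKM (WT) against 0.883 and 3.79 FPKM (cKO) at E9.5. The highest value was that of E8.5 WT replicate 1, and the genotypes did not overlap at E8.5 but did at E9.5. By limma the cKO hearts differed by -1.09 ± 0.60 at E8.5 (log2 change ± SE, adjusted p 0.596) and by -0.77 ± 0.60 at E9.5 (adjusted p 0.602). At E8.5 both cKO libraries lay below both WT libraries for 40.1% of all tested genes, so this separation was common. Without E8.5 WT replicate 1 the E8.5 difference of *Isl1* was -0.42 (adjusted p 0.983). The E9.5 difference was -1.28 and -0.25 without WT replicate 1 and 2, and -0.10 and -1.44 without cKO replicate 1 and 2. By q-PCR, the study reported lower *Isl1* in E9.5 cKO hearts.

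The library with the most *Isl1*, E8.5 WT replicate 1, also had the most RNA of foregut endoderm. Its cardiomyocyte markers had the lowest sum of the stage, 34153 FPKM against 49855 to 71748 FPKM in the other E8.5 libraries. Its erythroid genes summed to 10967 FPKM, against 22519 to 39775 FPKM. *Cldn4*, an epithelial junction gene, had 34.4 FPKM in E8.5 WT replicate 1 and 0.453 to 0.477 FPKM in the other 3 E8.5 libraries. *Nkx2-3*, a homeobox gene of pharyngeal endoderm, had 6.84 FPKM there and at most 0.409 in the other E8.5 libraries, and *Pax9*, a pouch marker, had 1.89 and at most 0.0802. Summed over the 16 endoderm markers, the level was 1409 and 715 FPKM (WT) against 995 and 857 FPKM (cKO) at E8.5, while *Sox2* and *Shh* were at 0 in 2 and 3 of the 4 E8.5 libraries. *Eya1*, a transcriptional cofactor shared by pharyngeal mesoderm and endoderm, was also highest in this library, with 1.82 and 0.250 FPKM (WT) against 0.257 and 0.0864 FPKM (cKO) at E8.5. The part of endoderm, heart muscle or erythroid RNA in the *Isl1* difference was not tested. These genes, apart from the members, were named after their values were seen.

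**Figure D2:**
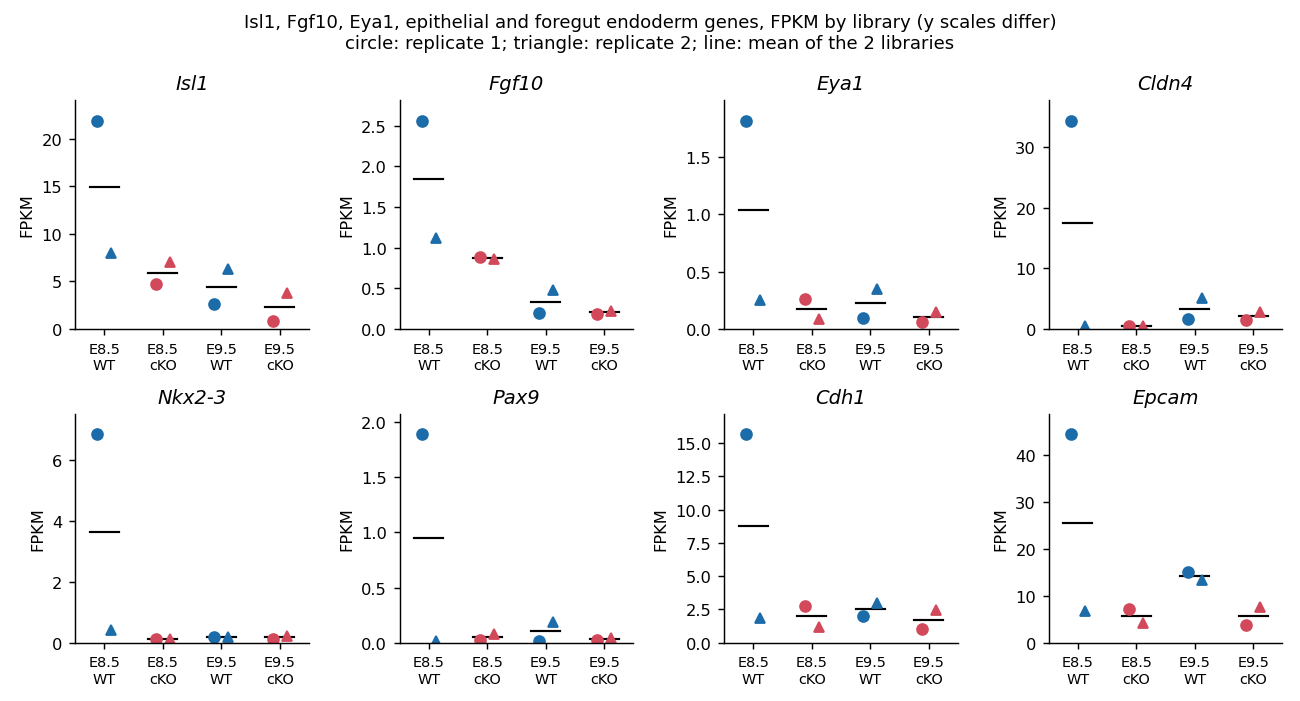
FPKM (y axis, linear from 0, a separate scale per gene) of *Isl1*, *Fgf10*, *Eya1* and of 5 epithelial and foregut endoderm genes by group (x axis), with each library as a point and the mean of 2 libraries as a line. The circle of E8.5 WT is the highest of all 8 libraries in each panel, with 21.9 FPKM for *Isl1* and 34.4 FPKM for *Cldn4*.

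Genes that work with ISL1 and TBX1 gave no call between genotypes. Of 11 listed partners (LIM adaptors, chromatin factors and CRKL), 10 were tested, and at E8.5 the median log2 change was -0.55 against -0.28 for all tested genes. *Ldb1*, the adaptor that ISL1 binds, had 5.36 and 5.06 FPKM (WT) against 4.83 and 4.74 FPKM (cKO) at E8.5. At E9.5 the median of the list was 0.01, and 0 of 10 were called.

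*Tbx1* encodes the T-box factor of the pharyngeal apparatus (chromosome 16, 18581704 to 18590671). It was read at 0 in 5 of the 8 libraries, and at 0.0441 FPKM in E8.5 cKO replicate 2, 0.0629 FPKM in E9.5 WT replicate 2 and 0.0691 FPKM in E9.5 cKO replicate 2, about 1 or 2 fragments each. A count of 0 allows up to 3 fragments, which corresponds to 0.0946 to 0.137 FPKM at these depths. No difference was detectable at this depth, and no fold is given. The value was also 0 in E8.5 WT replicate 1, the library with the most endoderm RNA. *Tbx1* lies 292.5 kb from *Dgcr8*, and of 14 tested genes listed for the region around both, with *Dgcr8* among them, 0 were called between genotypes at E8.5 or E9.5, with medians of -0.31 and -0.10.

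*Hoxb1*, the anterior *Hox* gene that responds to retinoic acid and marks posterior second heart field cells (chromosome 11, 96365758 to 96368253), was low in all libraries. It had 0.919 and 0.583 FPKM (WT) against 0.0558 and 0.297 FPKM (cKO) at E8.5, and 0.929 and 0.690 FPKM (WT) against 0.0939 and 0.0292 FPKM (cKO) at E9.5. In fragments this was about 24 and 21 against 2 and 8 at E8.5, and 27 and 26 against 3 and 1 at E9.5. The lowest WT value exceeded the highest cKO value over both stages, and both cKO libraries lay below both WT libraries at each stage, as they did for 18.3% of tested genes. The means differed 4.25-fold at E8.5 and 13.2-fold at E9.5. Pooled fragments gave ratios of 4.55 (95% exact interval 2.26 to 10.1, counting error only) and 13.1 (4.84 to 50), and the E9.5 cKO values rest on 4 fragments. Without single cKO libraries the ratio of means was 2.53 (without replicate 1) or 13.5 (without replicate 2) at E8.5 and 27.8 or 8.62 at E9.5. On the log2(FPKM + 1) scale, which understates changes of low values, the change was -0.57 at E8.5 (SE 0.15, unadjusted p 0.00791, limma adjusted p 0.476) and -0.77 at E9.5 (SE 0.15, unadjusted p 0.00195, adjusted p 0.220). Over all alternatives the adjusted p of the E9.5 change ran from 0.0758 to 0.809. The sum of 10 genes listed as neural crest markers was also lower in cKO hearts at E9.5, with 12.1 and 9.38 FPKM (WT) against 3.10 and 4.07 FPKM (cKO). *Sox9* and *Ets1* carried this sum, and the other 8 gave 0.997 and 2.06 against 0.247 and 0.996 FPKM. Both tested markers, *Sox9* and *Ets1*, were lower in the cKO libraries without being called, with 6.86 and 4.17 against 0.906 and 0.901 FPKM for *Sox9*. *Foxd3*, a defining factor of the crest, was at 0 in all 8 libraries, and *Sox10* did not exceed 0.0435 FPKM. At E8.5 the list summed to 8.41 and 5.56 against 4.08 and 4.43 FPKM. Their part in the values of *Hoxb1* was not tested.

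Of 14 listed *Hox* genes of groups 1 to 5 other than *Hoxb1*, 2 were tested and 0 called between genotypes. *Hoxb2*, the next gene of the cluster, overlapped between genotypes at both stages, with 1.504 and 1.79 against 0.697 and 2.94 FPKM at E8.5 and 0.951 and 0.419 against 0.453 and 0.805 FPKM at E9.5. *Hoxa2*, a hindbrain and neural crest gene fitted without a filter, was the other listed gene below WT in both cKO libraries at each stage, with 0.410 and 0.166 against 0 and 0.133 FPKM at E8.5 and 1.23 and 1.17 against 0.373 and 0.591 FPKM at E9.5 (log2 change at E9.5 -0.57, SE 0.14, limma adjusted p 0.248). E9.5 WT replicate 1 led its stage for 10 of the 14.

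Retinoic acid pathway genes were compared next, since *Hoxb1* is a target of the pathway. Of 15 genes, 11 were tested and 0 called between genotypes at either stage. At E8.5 the median log2 change was -0.69 against -0.28 for all tested genes, and 8 of 11 were lower in both cKO libraries than in both WT libraries, as were 40.1% of all tested genes. Without E8.5 WT replicate 1 the median was -0.47 over 10 genes, or -0.21 relative to the median of all tested genes. *Aldh1a2*, which makes retinoic acid in posterior mesoderm, had 6.72 and 2.42 FPKM (WT) against 1.12 and 4.73 FPKM (cKO) at E8.5. A day later the libraries gave 2.94 and 0.844 FPKM (WT) against 0.284 and 0.106 FPKM (cKO), without overlap (difference of -1.18, SE 0.58, limma adjusted p 0.375). *Crabp2*, a retinoic acid carrier, had 38.7 and 22.2 against 5.99 and 10.1 FPKM at E9.5 (-1.78 ± 0.45 on the log2 scale, adjusted p 0.136). *Cyp26a1*, which degrades retinoic acid, had 28.7 and 24.1 FPKM (WT) against 17.2 and 13.6 FPKM (cKO) at E8.5, and 0.123 and 0.725 FPKM (WT) against 2.86 and 3.84 FPKM (cKO) at E9.5. Its cKO libraries were thus lower at E8.5 and higher at E9.5, with a log2 change of 1.64 at E9.5 (SE 0.29, adjusted p 0.0890). *Dhrs3*, a reductase that limits retinoic acid formation, had 4.10 and 3.61 FPKM (WT) against 12.6 and 7.60 FPKM (cKO) at E9.5 (1.16 ± 0.40 on the log2 scale, adjusted p 0.227). Over the 11 tested genes the E9.5 median was -0.33 against -0.07 for all tested genes, and at 1.5-fold with an unadjusted p below 0.05, 2 (*Cyp26a1* and *Dhrs3*) lay above WT and 1 (*Crabp2*) below, beside 5.08% and 9.99% of all tested genes.

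**Figure D3:**
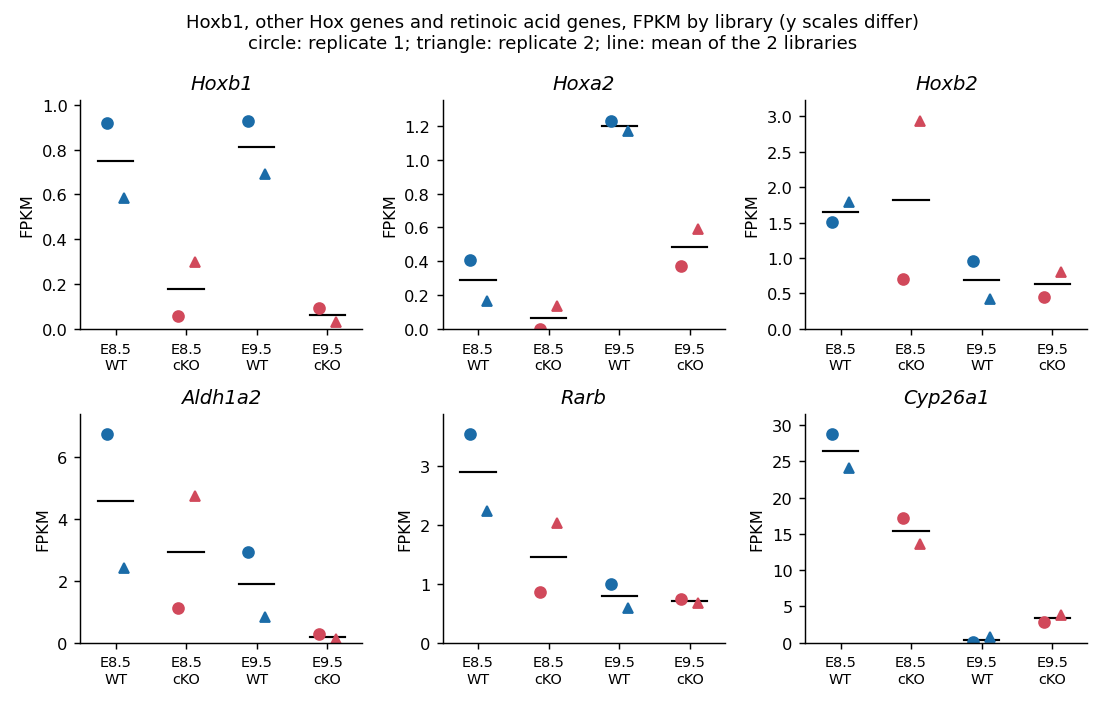
FPKM (y axis, linear from 0, a separate scale per gene) of *Hoxb1*, 2 other *Hox* genes and 3 retinoic acid pathway genes by group (x axis), with each library as a point and the mean of 2 libraries as a line. *Hoxb1* and *Hoxa2* separate the genotypes at both stages, *Hoxb2* overlaps at both, and *Cyp26a1* falls from 28.7 and 24.1 FPKM in E8.5 WT to 0.123 and 0.725 FPKM in E9.5 WT hearts.

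*Osr1*, a zinc-finger factor of the posterior second heart field and atrial septum progenitors (chromosome 12, 9574442 to 9581500), had 0.912 and 1.67 FPKM (WT) against 1.85 and 1.27 FPKM (cKO) at E8.5. A day later the libraries gave 3.10 and 1.62 FPKM (WT) against 0.649 and 0.423 FPKM (cKO). The genotypes overlapped at E8.5 and separated at E9.5, where the cKO mean was 4.41-fold lower. Both cKO libraries were below both WT libraries at E9.5 for 31.1% of tested genes. The E9.5 log2 change of *Osr1* was -1.10 (SE 0.30, unadjusted p 0.00682, limma adjusted p 0.153), where 15.1% of tested genes differed by 1.5-fold or more with an unadjusted p under 0.05 in either direction. The E9.5 change minus the E8.5 change was -1.27 (SE 0.43, unadjusted p 0.0182, adjusted p 0.658). Fitted without E9.5 WT replicate 1, the E9.5 change was -0.78 (adjusted p 0.366).

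*Foxf1* encodes a forkhead factor of splanchnic mesoderm that acts downstream of hedgehog signals (chromosome 8, 121084386 to 121088154). It had 0.776 and 1.57 FPKM (WT) against 1.08 and 0.814 FPKM (cKO) at E8.5, then 1.28 and 0.201 FPKM (WT) against 0.237 and 0.246 FPKM (cKO) at E9.5. The genotypes overlapped at both stages, and the 2 E9.5 WT libraries lay further apart than any other pair of replicates. By limma the cKO hearts differed by -0.14 ± 0.33 at E8.5 (log2 change ± SE, adjusted p 0.929) and by -0.41 ± 0.33 at E9.5 (adjusted p 0.812). Of 14 hedgehog pathway genes 2 were tested, and 0 were called between genotypes.

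The library with the most *Osr1* and *Foxf1* at E9.5 was WT replicate 1. It was also the highest of its stage for 7 of 11 markers of proepicardium and splanchnic mesoderm, as for 28.8% of all tested genes. *Tcf21*, a basic helix-loop-helix factor of epicardial and splanchnic mesenchyme, had 14.3 and 3.79 FPKM (WT) against 1.38 and 1.33 FPKM (cKO) at E9.5. *Barx1*, a stomach mesenchyme gene, had 1.90 and 0.172 against 0.253 and 0.142 FPKM. *Nr2f2*, a nuclear receptor of venous pole and atria that is not among the 11 markers, had 4.35 and 0.449 against 0.547 and 0.798 FPKM. The marker *Upk3b* was higher in both WT libraries, with 15.6 and 11.8 against 4.77 and 4.86 FPKM. *Gata5* overlapped between genotypes, with 6.57 and 3.13 against 6.58 and 4.71 FPKM. Of 5 tested markers, 4 had both cKO libraries below both WT libraries at E9.5, as did 31.1% of all tested genes. Summed over the 11 markers of proepicardium and splanchnic mesoderm, the level was 48.7 and 28.7 FPKM (WT) against 20.1 and 19.0 FPKM (cKO) at E9.5, with *Nkx6-1* at 0 in 3 of these 4 libraries. Their part in the values of *Osr1* and *Foxf1* was not tested.

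*Fgf8*, a secreted growth factor that the anterior second heart field needs to proliferate (chromosome 19, 45736798 to 45742884), was the member with the largest range. It had 28.4 and 30.5 FPKM (WT) against 12.8 and 14.6 FPKM (cKO) at E8.5, so the cKO mean was 2.15-fold lower. A day later the libraries gave 0.150 and 3.16 FPKM (WT) against 7.74 and 8.58 FPKM (cKO), so the cKO mean was 4.92-fold higher (2.58-fold without E9.5 WT replicate 1). Without E9.5 WT replicate 2 the WT value rests on about 2 fragments, and the ratio of pooled fragments was 61.5 (95% exact interval 16.9 to 511, counting error only). The genotypes did not overlap at either stage, and their order was opposite. Of all tested genes, 5.36% had both cKO libraries below both WT libraries at E8.5 and above both at E9.5, and 21% had them above at E9.5.

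By limma, the log2 change of *Fgf8* was -1.06 at E8.5 (SE 0.52, adjusted p 0.590) and 2.06 at E9.5 (SE 0.52, unadjusted p 0.00403, adjusted p 0.136). The E9.5 change minus the E8.5 change was 3.12 (SE 0.73, unadjusted p 0.00276, adjusted p 0.401), and relative to the median gene it ranked 28 of 10018 by size. No member was called for the difference between stages, against 0.0399% of tested genes. About 2 and 62 fragments lay behind the E9.5 WT values and 128 and 152 behind the E9.5 cKO values. Without E9.5 WT replicate 2 the E9.5 change was 2.99 and was called (adjusted p 0.0236), and without E9.5 WT replicate 1 it was 1.14 (adjusted p 0.178). The *Fgf8* transcript has a GC content of 62.8%, higher than that of 99.2% of tested genes. The 312 tested genes within 2.5 points of it had a median log2 change of 0.15 in cKO hearts at E9.5, and a median difference of 0.39 between replicates 1 and 2 of E9.5 WT, where *Fgf8* was lower in replicate 1. The 16 endoderm markers moved with *Fgf8* at E9.5 in their sum, with 426 and 519 FPKM (WT) against 947 and 896 FPKM (cKO). Keratin genes *Krt8* and *Krt18* carried this, at 181 and 288 against 468 and 425 FPKM and at 128 and 145 against 389 and 346 FPKM, and the other 14 summed to 116 and 85.9 against 89.1 and 125 FPKM. The median log2 change of the 10 tested markers was -0.01, and 0 were called. Endothelial markers also summed higher, to 125 and 115 FPKM (WT) against 218 and 180 FPKM (cKO). Of 9 tested, 4 had both cKO libraries above both WT libraries, as did 21% of all tested genes, with a median of 0.66 and 0 called. Of 10 erythroid genes 5 did, beside the same 21%, with a median of 0.90, 0 called and sums of 16367 and 34180 against 45222 and 33446 FPKM. Of 15 cardiomyocyte markers 8 did, with a median of 0.26, 0 called and sums of 85661 and 91871 against 109250 and 113200 FPKM. The part of these cell types in the *Fgf8* values was not tested.

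FGF receptors and targets were examined beside the ligand. Of 18 genes 15 were tested, and 0 were called between genotypes at E8.5 or at E9.5. At E8.5 the median log2 change was -0.59 against -0.28 for all tested genes, 10 of 15 had both cKO libraries below both WT libraries (40.1% of all tested genes did), and 7 of 15 were at least 1.5-fold lower with an unadjusted p under 0.05, as were 6.9% of all tested genes. With median-ratio scaling 2 of 15 were at this level, against 0.848% of tested genes, and with quantile normalization 4 of 15, against 1.17%. The 7 were *Spry1*, *Spry2*, *Spry4*, *Dusp6*, *Etv1*, *Etv5* and *Crkl*, which include feedback inhibitors of the pathway and its nuclear effectors, and they are named after their values were seen. *Spry4*, a feedback inhibitor, had 10.4 and 13.7 FPKM (WT) against 4.49 and 4.69 FPKM (cKO) at E8.5 (difference of -1.21, SE 0.23, adjusted p 0.590). *Spry1*, of the same family, had 9.04 and 5.31 against 2.43 and 2.29 FPKM. *Dusp6*, the phosphatase that switches off ERK, had 103.7 and 61.5 against 46.4 and 29.6 FPKM. *Etv5*, an ETS factor induced by FGF, had 51.0 and 31.2 against 24.4 and 11.1 FPKM. E8.5 WT replicate 1 was the higher WT library for each of the 7 but *Spry4*, and without it 3 of 14 tested genes were lower at this level, as were 2.08% of all tested genes.

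At E9.5 the same list stayed close to the median of all tested genes, with a median log2 change of 0.004 against -0.07. Of 15 genes, 0 differed at an unadjusted p under 0.05 and 1.5-fold, as 15.1% of all tested genes did in either direction. Both cKO libraries lay below both WT libraries for 3 of 15 and above both for 3, beside 31.1% and 21% of all tested genes. The E9.5 change minus the E8.5 change had a median of 0.39 against 0.18, and 12 of 15 genes lay above 0.18. At an unadjusted limma p under 0.05 and 1.5-fold, 3 of 15 were higher, as were 570 of 10018 tested genes, and 0 were called. *Dusp6* had 30.3 and 26.6 FPKM (WT) against 26.6 and 34.6 FPKM (cKO) at E9.5. *Spry4* had 0.954 and 1.14 against 1.22 and 1.22 FPKM, a shift of 0.12 ± 0.23 in log2 units (limma estimate ± SE, adjusted p 0.878). Among 13 other FGF ligands only *Fgf13*, an intracellular family member that is not secreted, had a mean of at least 1 FPKM, with 4.83 and 10.4 against 4.19 and 4.27 FPKM at E8.5 and 3.40 and 4.81 against 3.05 and 3.11 FPKM at E9.5.

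**Figure D4:**
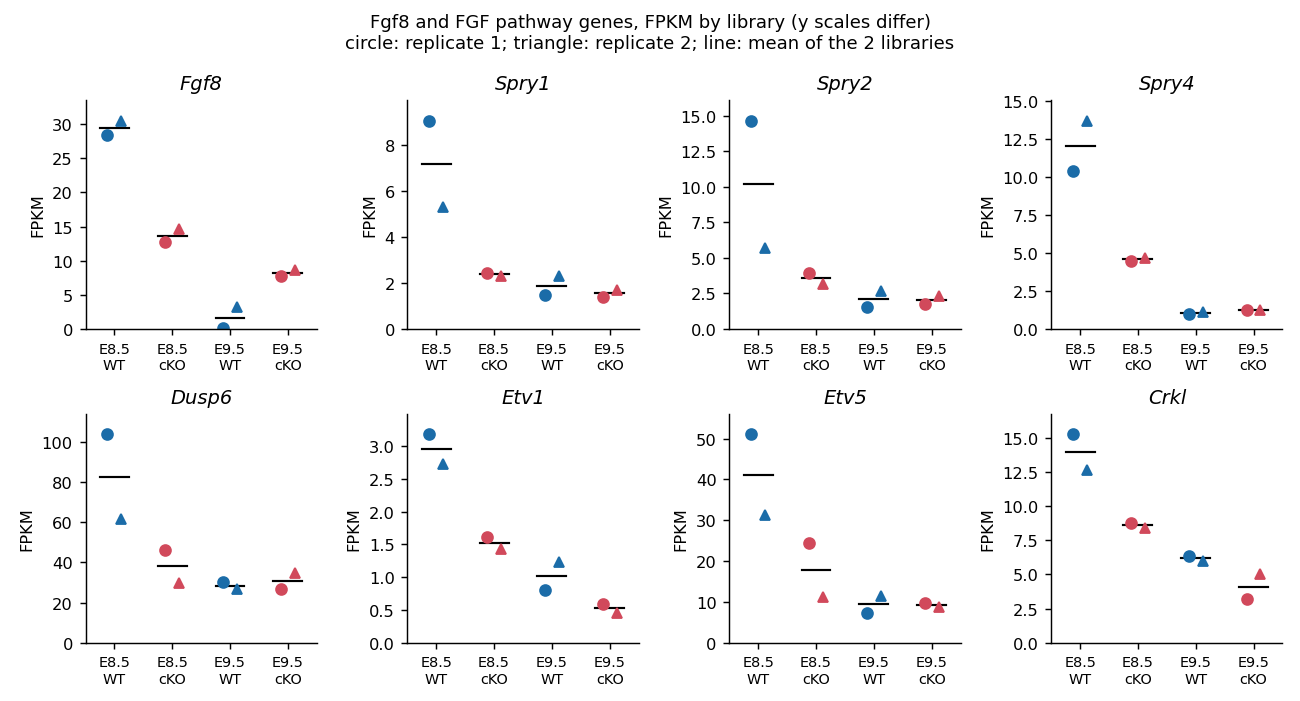
FPKM (y axis, linear from 0, a separate scale per gene) of *Fgf8* and 7 FGF pathway genes by group (x axis), with each library as a point and the mean of 2 libraries as a line. All 8 genes are lower in the cKO than in the WT libraries at E8.5. At E9.5 *Fgf8* is higher in the cKO libraries (7.74 and 8.58 against 0.150 and 3.16 FPKM), as is *Spry4* by a small margin. *Etv1* and *Crkl* are lower in both cKO libraries at E9.5, and *Spry1*, *Spry2*, *Dusp6* and *Etv5* overlap.

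*Fgf10*, the ligand secreted by anterior second heart field cells that form the outflow tract and right ventricle (chromosome 13, 118714699 to 118792573), had 2.56 and 1.11 FPKM (WT) against 0.886 and 0.858 FPKM (cKO) at E8.5. A day later the libraries gave 0.192 and 0.477 FPKM (WT) against 0.188 and 0.225 FPKM (cKO). The genotypes separated at E8.5, where the cKO mean was 2.11-fold lower (1.28-fold without E8.5 WT replicate 1), and overlapped at E9.5. In the fit without a filter the E8.5 log2 change was -0.55 (SE 0.26, limma adjusted p 0.603) and the E9.5 change -0.14 (SE 0.26, adjusted p 1). Its highest value was again that of E8.5 WT replicate 1, without which the E8.5 change was -0.17 (adjusted p 0.952).

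*Pdgfra*, a receptor for PDGF ligands found on cardiac mesoderm and its progenitors (chromosome 5, 75152291 to 75198204), had 8.69 and 6.65 FPKM (WT) against 5.18 and 11.2 FPKM (cKO) at E8.5. A day later the libraries gave 2.39 and 1.56 FPKM (WT) against 0.718 and 0.818 FPKM (cKO). The genotypes overlapped at E8.5, with a change of 0.01 ± 0.35 in log2 units (limma estimate ± SE, adjusted p 0.990). At E9.5 they separated, with a cKO mean 2.57-fold lower and a change of -0.74 ± 0.35 in log2 units (limma estimate ± SE, adjusted p 0.355). *Pdgfrb*, the receptor of mural and mesenchymal cells, had 2.52 and 2.47 FPKM (WT) against 0.540 and 0.588 FPKM (cKO) at E9.5 (difference of -1.16, SE 0.24, adjusted p 0.112). *Pdgfa*, the main ligand of the alpha receptor, had 9.21 and 4.84 against 1.35 and 4.06 FPKM at E8.5 and 3.81 and 3.36 against 1.80 and 2.35 FPKM at E9.5. The sums of the listed neural crest genes, carried by *Sox9* and *Ets1*, and of the splanchnic markers given above were also lower in both cKO libraries at E9.5. Their part in these values was not tested. Of the 5 PDGF ligands and beta receptor, 3 were tested and 0 were called between genotypes.

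The members were then compared between stages, to ask how their levels at E9.5 stood against those at E8.5. Heart muscle markers were compared over the same stages. Of 15, 7 rose and 0 fell in WT hearts, where 1.4% of tested genes rose, with a median log2 change of 0.97, and 6 rose and 0 fell in cKO hearts, where 2.05% rose, with a median of 0.60. The part of this shift in the members' values was not tested. In WT hearts *Fgf8* fell from 29.5 ± 1.48 to 1.66 ± 2.13 FPKM (SD, n = 2), a shift of -3.80 ± 0.52 in log2 units (limma estimate ± SE, adjusted p 0.00967). *Pdgfra* fell from 7.67 ± 1.45 to 1.98 ± 0.587 FPKM, a shift of -1.55 ± 0.35 in log2 units (limma estimate ± SE, adjusted p 0.0159). Both were called, as were 46.7% of tested genes as lower, so the calls are read against the median change of -0.84. That share depended on single libraries, since 27 of 9798 genes were called lower without E8.5 WT replicate 1, 147 of 9878 without E8.5 WT replicate 2, 47 of 10116 without E9.5 WT replicate 1 and 2208 of 10117 without E9.5 WT replicate 2. Relative to the median gene the changes were -2.96 for *Fgf8* and -0.71 for *Pdgfra*. *Pdgfra* was no longer called with median-ratio scaling (-0.75, adjusted p 0.320), and with quantile normalization neither *Pdgfra* (-0.58, adjusted p 0.513) nor *Fgf8* (-2.86, adjusted p 0.0564) was called. The change of *Fgf8* ran from -5.03 to -2.86 over all alternatives. The call of *Fgf8* was lost without E8.5 WT replicate 1 (-3.85, adjusted p 0.0657), and that of *Pdgfra* was lost without any single WT library (adjusted p 0.0577 to 0.0937).

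*Isl1* had a log2 change of -1.49 between stages in WT hearts (SE 0.60, limma adjusted p 0.0666) and *Osr1* one of 0.54 (SE 0.30, adjusted p 0.158). Leaving out single libraries moved the *Isl1* change between -2.16 (without E8.5 WT replicate 2) and -0.82 (without E8.5 WT replicate 1), and it was called with rescaling to longer loci (-1.67, adjusted p 0.0462) and with the crossed replicate pairing (adjusted p 0.0340), an alternative chosen after seeing the data. *Isl1* did not overlap between stages, as was the case for 80.1% of tested genes with lower E9.5 values. In the fit over 19580 features *Fgf10* fell by 1.05 on the log2 scale (SE 0.26, adjusted p 0.0419), where 16.7% of features were called lower. This call was lost in 10 of 17 alternatives, among them median-ratio scaling (-0.59, adjusted p 0.326), quantile normalization (-0.48, adjusted p 0.447) and the fit without E8.5 WT replicate 1 (-0.67, adjusted p 0.112). *Foxf1* (-0.37, adjusted p 0.437) and *Hoxb1* (0.05, adjusted p 0.845) overlapped between stages.

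In cKO hearts *Pdgfra* fell from 8.20 ± 4.27 to 0.768 ± 0.0702 FPKM (SD, n = 2), a shift of -2.30 ± 0.35 in log2 units (limma estimate ± SE, adjusted p 0.0160), where 28.5% of tested genes were called lower. *Fgf8* had 13.7 ± 1.32 FPKM at E8.5 and 8.16 ± 0.591 FPKM at E9.5 in cKO hearts (difference of -0.68, SE 0.52, adjusted p 0.317), beside a median change of -0.64. The direction turned with median-ratio scaling (0.01) and quantile normalization (0.04). The log2 change was -1.17 for *Isl1* (SE 0.60, adjusted p 0.153) and -0.73 for *Osr1* (SE 0.30, adjusted p 0.0951). All 4 tested members had both E9.5 libraries below both E8.5 libraries in cKO hearts, as did 62.7% of tested genes. The comparisons of stages and of genotypes use the same libraries and are not independent of each other. The call of *Pdgfra* was lost without either E9.5 cKO library (adjusted p 0.0912 without replicate 1 and 0.0617 without replicate 2), and the count of all tested genes called lower was then 0 and 1, against 2857.

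**Figure D5:**
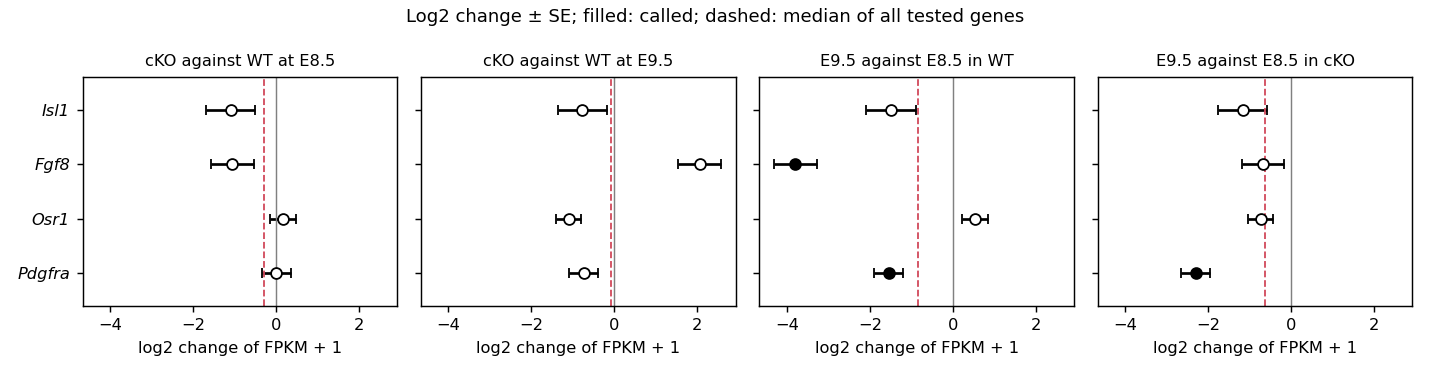
Log2 change of FPKM + 1 (x axis) with its SE (bars) for the 4 tested members (y axis) in 4 comparisons; filled points were called, the grey line marks 0 and the dashed line the median of all 10018 tested genes. *Fgf8* lies at -3.80 between stages in WT hearts and at -0.68 in cKO hearts, and changes sign between the 2 genotype comparisons.

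Factors that act beside the members were compared in the same way. Of 25 companion factors 19 were tested, and 10 fell and 0 rose between the stages in WT hearts, where 46.7% of all tested genes fell, with a median log2 change of -1.13 against -0.84 for all tested genes. *Foxh1*, a partner of SMAD proteins needed for the outflow tract, fell from 171.2 and 197.7 to 8.89 and 10.5 FPKM (-4.12, SE 0.28, limma adjusted p 0.00167). *Mef2c*, a target of ISL1, fell from 28.6 and 20.1 to 1.73 and 6.11 FPKM (-2.50 ± 0.52 on the log2 scale, adjusted p 0.0142). In cKO hearts 5 of 19 fell and 0 rose, where 28.5% of all tested genes fell. With median-ratio scaling 1 of the 19 was called lower in WT hearts, as were 69 of 10018 tested genes. With quantile normalization 1 of the 19 was, as were 27 of 10018. Between genotypes 0 of 19 were called, and the largest difference at E9.5 was that of *Wnt11*, a ligand of outflow tract myocardium, with 2.41 and 3.09 FPKM in WT and 9.95 and 7.05 in cKO hearts (1.33 ± 0.30 on the log2 scale, adjusted p 0.116). Of the 15 tested FGF receptors and targets 13 fell and 0 rose in WT hearts, and 7 fell and 0 rose in cKO hearts, beside the same 46.7% and 28.5%. *Spry4* fell by 2.66 and *Etv5* by 2.01 on the log2 scale in WT hearts, and 1 of the 15 was called lower with either scaling, beside the same 69 and 27 of 10018.

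Promoter windows of 250 bases before and 50 after the annotated start were read for members with lower E9.5 than E8.5 values in both genotypes, or with separated genotypes at both stages. *Isl1*, *Fgf8*, *Fgf10* and *Pdgfra* were of the first kind, a direction that most tested genes had, and *Hoxb1* was lower in all cKO libraries. RefSeq windows (GRCm38.p6) were found for 5 of the 8 members, and *Fgf8*, *Osr1* and *Foxf1* were not among them. Capitals mark matches, on either strand, to any of 11 short motifs: the core promoter box bound by TBP (TATAAA), the box bound by the factor NF-Y (CCAAT), the box bound by SP factors (GGGCGG), the site of the zinc-finger factors GATA4 to GATA6 (AGATAA), a homeodomain site (TAATTA), a forkhead site (TAAACA), a T-box site (GGTGTGA), an NK2 homeodomain site (TNAAGTG), a TCF/LEF site (CTTTGAT), a retinoic acid receptor half-site (AGGTCA) and an ETS site (CCGGAA). All are shown 5′ to 3′ on the strand of the gene.
*Isl1*, chr13:116309639-116309938, minus strand: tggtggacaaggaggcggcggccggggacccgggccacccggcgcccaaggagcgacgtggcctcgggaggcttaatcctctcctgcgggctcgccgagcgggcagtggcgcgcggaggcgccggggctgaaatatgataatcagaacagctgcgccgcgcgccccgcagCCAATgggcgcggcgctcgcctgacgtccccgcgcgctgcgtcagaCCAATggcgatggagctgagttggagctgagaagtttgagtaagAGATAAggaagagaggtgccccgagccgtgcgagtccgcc
*Fgf10*, chr13:118714449-118714748, plus strand: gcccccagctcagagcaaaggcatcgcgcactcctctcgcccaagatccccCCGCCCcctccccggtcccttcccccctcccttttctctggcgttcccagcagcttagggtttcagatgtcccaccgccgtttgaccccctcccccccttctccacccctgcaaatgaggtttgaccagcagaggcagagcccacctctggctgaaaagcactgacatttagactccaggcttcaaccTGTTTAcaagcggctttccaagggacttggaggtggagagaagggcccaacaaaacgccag
*Pdgfra*, chr5:75152001-75152300, plus strand: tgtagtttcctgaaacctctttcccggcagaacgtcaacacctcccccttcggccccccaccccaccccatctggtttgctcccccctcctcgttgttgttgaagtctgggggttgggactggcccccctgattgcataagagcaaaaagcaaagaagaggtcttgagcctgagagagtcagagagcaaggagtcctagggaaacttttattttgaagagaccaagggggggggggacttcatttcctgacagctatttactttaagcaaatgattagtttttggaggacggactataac
*Hoxb1*, chr11:96365508-96365807, plus strand: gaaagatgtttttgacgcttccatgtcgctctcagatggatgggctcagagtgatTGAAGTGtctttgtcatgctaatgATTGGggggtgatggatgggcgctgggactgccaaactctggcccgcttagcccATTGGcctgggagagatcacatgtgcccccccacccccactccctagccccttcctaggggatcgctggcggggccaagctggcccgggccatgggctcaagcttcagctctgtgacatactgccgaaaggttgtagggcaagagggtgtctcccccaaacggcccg

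The *Isl1* window held CCAAT at 2 places and AGATAA 11 bases after the start. The *Fgf10* window held GGGCGG and, 11 bases before the start, TAAACA, both on the opposite strand. The *Hoxb1* window held CCAAT at 2 places on the opposite strand and TNAAGTG, and the *Pdgfra* window held none of the 11. Among 32851 windows of 300 bases, 37.4% held CCAAT, 35.7% GGGCGG, 13.4% TAAACA, 11.5% TNAAGTG and 11.2% AGATAA. No motif was shared by *Isl1*, *Fgf10* and *Pdgfra*. GC content was 69% in the *Isl1* window, 60.7% in *Fgf10*, 59.3% in *Hoxb1* and 51% in *Pdgfra*, against a median of 52.7%.

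The genes with the most similar pattern over the 8 libraries were taken by Pearson's r of log2(FPKM + 1) after the median of the tested genes was subtracted in each library, as a description. They were *Bbs4* (0.974), *Zfp566* (0.937) and *Moap1* (0.933) for *Isl1*, and *Rnf19a* (0.956), *Mpped2* (0.932) and *Arid3b* (0.913) for *Fgf8*. For *Pdgfra* they were *Cand1* (0.989), *Txnrd1* (0.983) and *Kansl2* (0.983), and for *Osr1* they were *Hirip3* (0.980), *Naaa* (0.967) and *Pias3* (0.954). None of these is a gene of the lists above. Among the 4 tested members the pair *Fgf8* and *Osr1* had an r of -0.955 on this centred scale, and the other 5 pairs lay between -0.33 and 0.43. Without centring that pair had an r of -0.49 and the others lay between 0.01 and 0.73. The 8 libraries share stage and scaling, so these values carry no test.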

How the data were processed

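RNA of E8.5 and E9.5 hearts (SMARTer Ultra Low kit, TRIZOL) was sequenced in 8 libraries. The authors mapped reads with BWA and deposited FPKM per gene. The program that computed FPKM is not given in the sources used here. The study names mm9, but of 9515 tested genes found in RefSeq 91.7% start within 1000 bp of the GRCm38 position, so coordinates are on GRCm38. Of 24930 entries, the highest of each of 285 repeated symbols was kept, leaving 24385 features. All 8 columns of per-sample values were used.

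Two-sided limma tests (version 3.58.1, R 4.3.3) used log2(FPKM + 1) in 1 linear model of 4 groups with a mean-variance trend. Benjamini-Hochberg adjustment ran over the 10018 genes whose mean reached 1 FPKM. Features above 0 in at least 1 library were fitted in the same way for members below that filter. The study says the 2 libraries per group are biological replicates. Pooling of embryos is not given in the sources used here. Depth was solved from the value of single fragments in 39 of 41 single-exon genes, with an effective length 202.1 bp below the transcript length. The fragment numbers given are estimates, and they cover counting error only. The floor is 3 fragments. GC content came from the longest GENCODE transcript and was found for 91.1% of tested genes. The fit was tested on simulated data.

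The members and gene lists were chosen with earlier results of these data known. Named genes were all members, *Dgcr8*, up to 4 called genes per list and comparison by size of change (or the 2 with the highest mean where none was called) and the 3 genes most correlated with each tested member. Genes named beyond this rule, among them the FGF, retinoic acid, *Hox*, PDGF, endoderm, neural crest and splanchnic genes given by genotype, were chosen after their values were seen. Alternatives were a pseudocount of 0.1, no filter, 1 FPKM in 2 libraries, 2 scalings, rescaling to loci of at least 300 bp, a replicate block, no trend, only the libraries compared, and leaving out each library. Results of some genes are not reported here.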

Additional observations from a re-analysis of the deposited data

Results flagged for a closer look

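*Fgf8* was set apart because its libraries separated in opposite directions at the 2 stages. Both cKO libraries lay below both WT libraries at E8.5 and above both at E9.5. The cKO effect at E9.5 minus that at E8.5 was 3.12 on the log2 scale (SE 0.73, limma adjusted p 0.401), and it did not pass the test of the difference. It ran from 2.19 to 4.29 over the alternatives, with adjusted p between 0.0683 and 0.999.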

How the results depend on the processing

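No member was called between genotypes at E8.5, or for the difference between stages, under any alternative run. The count at E9.5 ranged from 0 to 1 when single libraries were left out. The count between stages in WT hearts was 1 after median-ratio scaling, 0 after quantile normalization and 0 to 2 without single libraries. In cKO hearts it was 0 with quantile normalization and 0 to 1 without single libraries. With the replicate number as a block the counts remained 0, 0, 2 and 1, and *Fgf10* between stages in WT had an adjusted p of 0.0625. Libraries with equal numbers had correlations of deviations from -0.116 to 0.0168, so they share only a number. With the crossed pairing, chosen after seeing the data, 3 members were called between stages in WT hearts.

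Some changes, none of them called, turned direction. Median-ratio scaling gave 0.0331 for *Foxf1* between genotypes at E8.5, 0.0719 for *Foxf1* between stages in WT and 0.0124 for *Fgf8* between stages in cKO hearts (-0.68 as deposited). Quantile normalization gave 0.0211, 0.196 and 0.0367 for these, and -0.021 for the difference of *Isl1* between stages. Rescaling to long loci gave -0.0729 for *Pdgfra* at E8.5 and -0.0487 for *Hoxb1* between stages in WT. The cause was not tested.

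Without single libraries the E8.5 change ranged from -0.48 to 0.50 for *Pdgfra*, from -0.0688 to 0.41 for *Osr1* and from -0.40 to 0.13 for *Foxf1*. The E9.5 change ranged from -0.29 to 0.0177 for *Fgf10* and from -0.87 to 0.0477 for *Foxf1*. Between stages the range was -0.0878 to 0.19 for *Hoxb1* and -0.83 to 0.0928 for *Foxf1* in WT, and -0.29 to 0.0071 for *Hoxb1* in cKO hearts. The difference between stages ranged from -0.35 to 0.99 for *Isl1* and from -0.74 to 0.18 for *Foxf1*.

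Depth limits *Tbx1*, *Hoxb1* and *Fgf10*, and 2 libraries per group limit all tests. The counts between stages over all genes moved with scaling and with single libraries. The tested genes called lower in WT numbered 4683 as deposited, 69 after median-ratio scaling and 27 after quantile normalization, while 140, 321 and 88 were called higher.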
